A study of Rattus norvegicus with 8 samples.

Results

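The liver moves drugs and endogenous organic anions through 2 kinds of membrane protein, and 9 rat genes of these kinds were examined: the exporters Abcc2, Abcb1a and Abcb1b of the canalicular (bile-facing) membrane, the exporters Abcc3, Abcc4 and Abcc6 of the basolateral (blood-facing) membrane, and the uptake carriers Slco1a1, Slco1a4 and Slco1b2. The genes were chosen by name for their transport role, and every probe whose accession mapped to one of them was taken, with Abcb1 read as Abcb1b. They make up 9 of the 15168 genes with a named probe on the array, through 11 probes, 8 for exporters and 3 for carriers. Of these, 8 probes for 7 genes were bright enough to be tested.

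The arrays measured liver RNA of male Sprague-Dawley rats aged 21 days whose dams had been dosed from gestation day 0 to postnatal day 20. The 0.5MAhR offspring were born to dams that received, in corn oil, 0.5 mg/kg/day of a mixture of methyl mercury, polychlorinated biphenyls (PCBs) and organochlorine pesticides, plus agonists of the aryl hydrocarbon receptor (AhR). The agonists were polychlorinated-dibenzofurans, polychlorinated-dibenzodioxins and non-ortho-PCBs, with a total of 6.3 ng/kg/day in dioxin toxic equivalents. The Control offspring were born to dams that received corn oil alone. Neither group was cross-fostered. Each array held RNA pooled from 2 pups, with 4 arrays per group, labelled with Cy5 against a common Cy3 reference RNA from 14 rat cell lines, in the same dye orientation throughout. No source used here gives the pups' litters, so pups of a dam may lie in several pools, and the p-values measure only the spread between these pools.

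Hepatocytes take organic anions from portal blood through carriers of the Slco (Oatp) family, conjugate many of them, and send the products into bile or back to blood through ATP-driven exporters of the Abcc (Mrp) and Abcb1 (P-glycoprotein) families. Several of these genes are known targets of nuclear receptors that sense foreign chemicals, such as the pregnane X receptor (PXR) and the constitutive androstane receptor (CAR), and of the oxidant-sensing factor NRF2. The AhR, a ligand-activated transcription factor, is best known for induction of Cyp1a1. That gene served as the check of exposure here: its log2 ratio of sample over reference averaged 4.93 ± 0.59 on 0.5MAhR arrays and 0.90 ± 0.53 on Control arrays (SD, n = 4 each), a difference of 4.04 with limma's adjusted p = 0.00924.

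Abcc2 encodes Mrp2, which exports bilirubin glucuronides and glutathione conjugates into bile, and its difference between the groups had the smallest p of the 7 measured members. The stretch before and around its transcription start (250 bases before to 50 after) is shown because it holds more of the searched motifs than that of any other member with an entry, beside those of the neighbouring carriers Slco1b2, which holds a few, and Slco1a4, which holds none. Capitals mark matches to GCGTG (the core bound by the AhR with ARNT), TGACNNNGC (the core of the antioxidant response element bound by NRF2), or AGTTCA and AGGTCA (half-sites of nuclear receptors), on either strand. The sequences are RefSeq's for build GRCr8, 5′ to 3′ on each gene's own strand, and lie at chr1:252613625-252613924 (plus strand), chr4:176282334-176282633 (plus strand) and chr4:176495797-176496096 (minus strand).
Abcc2: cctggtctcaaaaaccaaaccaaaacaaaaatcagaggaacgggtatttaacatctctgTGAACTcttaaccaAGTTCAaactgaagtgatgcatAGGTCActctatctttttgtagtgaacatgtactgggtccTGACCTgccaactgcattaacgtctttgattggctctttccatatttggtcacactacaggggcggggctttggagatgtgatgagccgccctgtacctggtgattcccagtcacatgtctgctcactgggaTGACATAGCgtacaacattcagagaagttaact
Slco1b2: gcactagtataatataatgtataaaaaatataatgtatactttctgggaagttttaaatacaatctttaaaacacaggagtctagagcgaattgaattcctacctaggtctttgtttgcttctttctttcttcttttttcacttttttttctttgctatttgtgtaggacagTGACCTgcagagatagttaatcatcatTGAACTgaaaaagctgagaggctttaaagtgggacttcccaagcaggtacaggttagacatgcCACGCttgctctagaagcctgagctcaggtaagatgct
Slco1a4: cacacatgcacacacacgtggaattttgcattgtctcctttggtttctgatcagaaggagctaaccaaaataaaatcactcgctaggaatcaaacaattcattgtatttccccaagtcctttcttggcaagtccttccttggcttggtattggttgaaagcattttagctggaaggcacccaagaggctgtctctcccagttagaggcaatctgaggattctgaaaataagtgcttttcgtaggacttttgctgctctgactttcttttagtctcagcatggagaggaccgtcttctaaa

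The Abcc2 stretch held 5 matches. Counted from the transcription start, the half-site AGTTCA lay at position -191 on the opposite strand and at -177 on the gene's strand, and AGGTCA lay at -155 and, on the opposite strand, at -115. One TGACNNNGC lay at position 18, just after the start, and no GCGTG was found. The AGTTCA pair faces outwards with a spacer of 8 bases, an everted repeat of a kind known from work on rat Abcc2 as a binding arrangement for PXR, CAR and the bile acid receptor FXR with their partner RXR. Of 33469 rat promoter stretches of the same length, 1 (0.00299%) held this exact arrangement, that of Abcc2 itself. The arrangement was searched for only after the matches had been seen, so a count of at least 1 was fixed in advance. Single matches were common: GCGTG occurred in 29.7% of all stretches, TGACNNNGC in 12.1%, AGTTCA in 14.5% and AGGTCA in 16.2%.

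Among the other members, Abcc4 held 2 GCGTG matches, both on the opposite strand, at -226 and -17. Slco1b2 held 1 GCGTG at position 13, 1 AGTTCA at -51 and 1 AGGTCA at -78, all on the opposite strand. Abcb1a, Abcb1b, Abcc6, Slco1a1 and Slco1a4 held none of the 4 motifs, which says only that these letters are not in this window. A stretch was at hand for 8 of the 9 genes. Abcc3 is named only.

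Abcc2 had log2 ratios of 4.52, 4.34, 4.30 and 4.42 on 0.5MAhR arrays 1 to 4, against 3.93, 3.96, 3.97 and 4.05 on Control arrays 5 to 8. Every 0.5MAhR array lay above every Control array, and the lowest 0.5MAhR value and the highest Control value were further apart than any pair of Control values. The means were 4.40 ± 0.10 in 0.5MAhR and 3.98 ± 0.05 in Control (SD, n = 4 each), a difference of 0.42 on the log2 scale, or 1.33-fold (SE 0.09 on the log2 scale, 95% interval 0.21 to 0.62). In limma's fit across 10566 genes or unnamed probes this gave an unadjusted p of 0.00128 and an adjusted p of 1, so Abcc2 did not pass the threshold of 0.05. Abcc2 was the 8th of the 10566 by p. Of all genes tested, 1 passed the threshold (0.00946%), which was Cyp1a1, and of the members 0 of 7 passed. Abcc2 alone of the members was at an unadjusted p under 0.05, as were 1.53% of all genes.

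Several members differed between the columns of the slide, so the results are also given with slide column fitted. Each slide column held 2 arrays of each group: 0.5MAhR arrays 2 and 4 and Control arrays 5 and 7 were in column 1, and the others in column 2. Of the genes tested, 6016 (56.9%) differed between the columns at an adjusted p under 0.05. With slide column as a term in the fit, Abcc2 kept its difference of 0.42 (95% interval 0.26 to 0.58), with an unadjusted p of 0.000211 and limma's adjusted p = 0.191. In that fit 0.0473% of all genes passed the threshold, and again 0 of the 7 members. Within column 1 alone the Abcc2 difference was 0.43, and within column 2 alone it was 0.41.

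**Figure D1:**
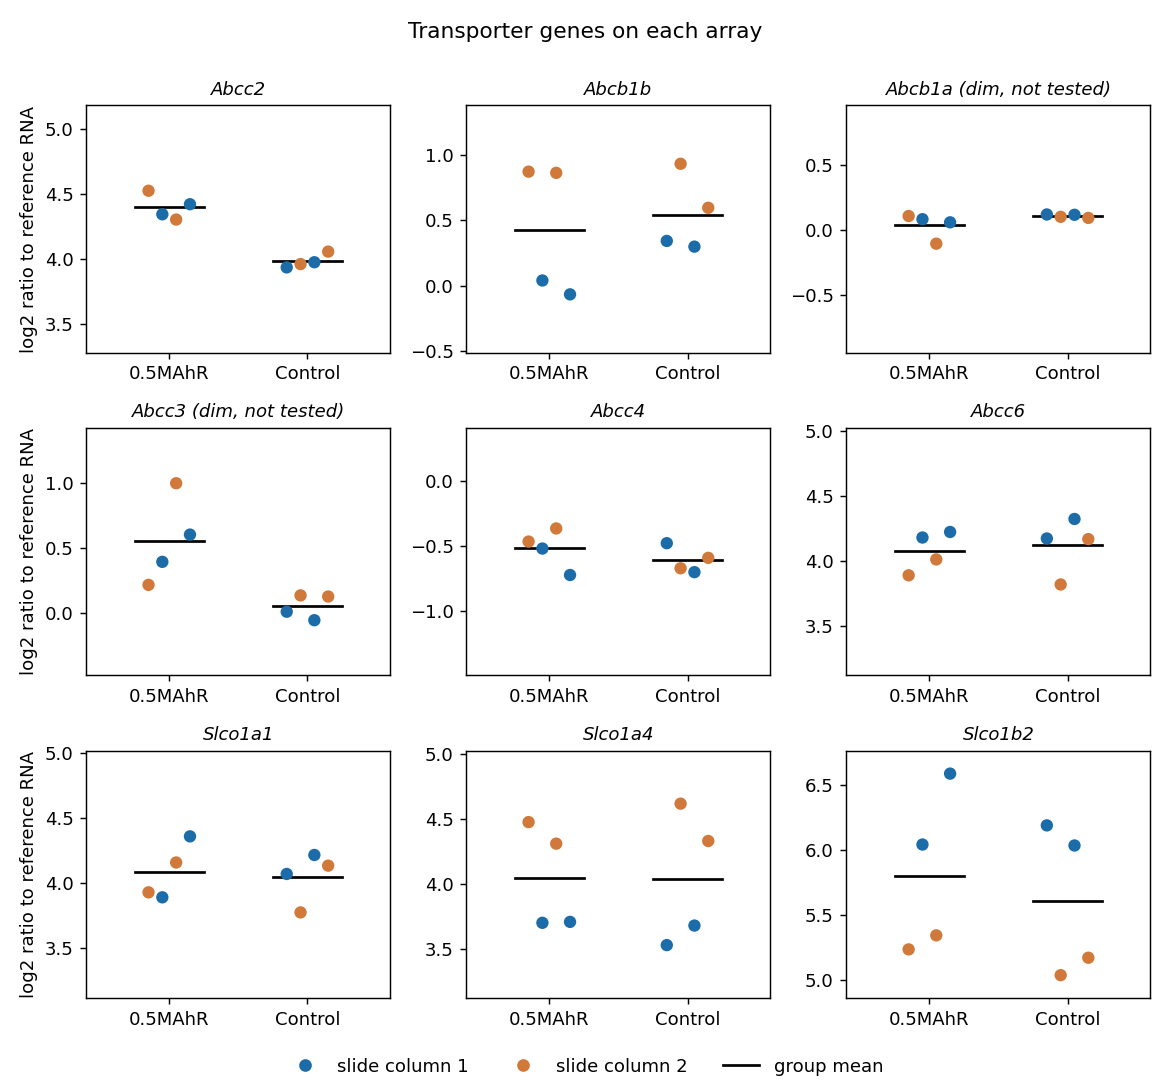
Log2 ratio of Cy5 sample over Cy3 reference (vertical axis, a scale for each gene) of the 9 transporter genes on each array, Abcb1a and Abcc3 being dim and not tested, with 0.5MAhR to the left of Control and points coloured by slide column; black lines are group means. The Abcc2 points of 0.5MAhR, 4.30 to 4.52, all lie above those of Control, 3.93 to 4.05, while the points of Abcb1b, Slco1a4 and Slco1b2 separate by slide column.

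The Abcc2 probe was printed at 10 spots per array, which shows its spread within an array. After outlier spots were left out, 8 to 10 spots per array remained, and their SD within an array was 0.21 to 0.37 on the log2 scale. This SD is not error alone, since the values trended in spot order. Between the first and last spot they fell in column 2 (5.08 to 3.94 on 0.5MAhR array 1, 4.45 to 3.42 on Control array 6). They rose in column 1 (4.04 to 4.69 on 0.5MAhR array 2, 3.51 to 4.26 on Control array 5). Cy5 signal above local background was 1300, 1180, 1690 and 1640 on the 0.5MAhR arrays, against 881, 990, 1030 and 1250 on the Control arrays, as median intensity units of the scanner. On this scale, before normalisation, 0.5MAhR array 2 lay below Control array 8. The reference signal at the same spots was 121 to 137 on 0.5MAhR arrays and 119 to 134 on Control arrays. Normalised alone, the sample channel differed by 0.40 and the reference channel by 0.0002 on the log2 scale.

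**Figure D2:**
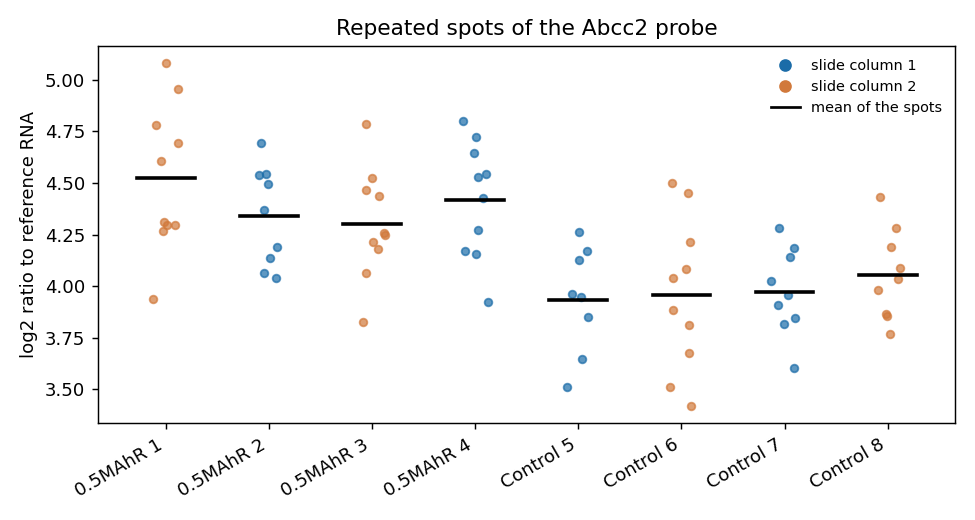
Log2 ratio of sample over reference (vertical axis) at each retained spot of the Abcc2 probe, by array, 0.5MAhR arrays left of Control arrays; bars mark array means. Spots of an array have an SD of 0.21 to 0.37, which includes a trend in spot order that is not drawn. The array means are 4.30 to 4.52 in 0.5MAhR and 3.93 to 4.05 in Control.

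Abcb1a and Abcb1b encode the 2 rat P-glycoproteins that export lipophilic drugs. On none of the 8 arrays was the single Abcb1a probe well above background in either channel, and no fold is given. The Abcb1b probe that stands for the gene had log2 ratios of 0.88, 0.04, 0.87 and -0.07 on 0.5MAhR arrays 1 to 4, against 0.34, 0.94, 0.30 and 0.60 on Control arrays 5 to 8. The groups overlapped, and in both the arrays of column 2 were the high ones. The means were 0.43 ± 0.51 in 0.5MAhR and 0.54 ± 0.29 in Control, a difference of -0.12 (95% interval -0.70 to 0.46, unadjusted p = 0.662 in limma's fit). Column 2 exceeded column 1 by 0.67 for this probe, and with column in the fit the interval narrowed to -0.36 to 0.13. Within column 1 alone the difference was -0.34 (unadjusted p = 0.0109, limma's adjusted p = 0.815), and within column 2 alone it was 0.10. Of all genes tested, 562 were at an unadjusted p under 0.05 in limma's fit within column 1. A dimmer second probe of Abcb1b differed by 0.04 between the groups, with an interval of -0.14 to 0.22 when column was fitted. Its column difference was -0.37, opposite to that of the first probe.

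Abcc3 encodes Mrp3, which returns glucuronides to blood, and it lay near the limit of detection. Its log2 ratios were 0.21, 0.39, 1.00 and 0.60 on 0.5MAhR arrays 1 to 4, against 0.01, 0.13, -0.06 and 0.13 on Control arrays 5 to 8. Every 0.5MAhR value lay above every Control value, as for 0.786% of the genes tested. That share leaves out probes as dim as this one, and the share among dim probes was not counted. The probe was well above background in Cy5 on 0.5MAhR arrays 3 and 4 only and on no Control array, too few to enter the test. Cy5 signal above local background was 11.5, 18.2, 48.5 and 27.5 units on the 0.5MAhR arrays, against 5.75, 11, 4.25 and 12 units on the Control arrays, where 0.5MAhR array 1 falls within the Control range. With the Control arrays not well above background set at the lowest signal that was, Abcc3 came out 1.17-fold higher in 0.5MAhR. The probe was measured on 2 of 4 of those 0.5MAhR arrays. The 0.5MAhR mean also includes arrays 1 and 2, which were not well above background, so this fold is not a strict lower bound. No array was dye-swapped, so dye bias was not measured, and both groups carry it in the same orientation.

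Abcc4 encodes Mrp4, a basolateral exporter of bile acids and cyclic nucleotides. Its brighter probe had log2 ratios of -0.47, -0.52, -0.37 and -0.72 on 0.5MAhR arrays 1 to 4, against -0.48, -0.67, -0.70 and -0.59 on Control arrays 5 to 8. The groups overlapped, and 0.5MAhR array 4 held the lowest value of all. The difference was 0.09 (95% interval -0.15 to 0.34). The probe was well above background on 3 0.5MAhR arrays and 2 Control arrays, so it entered the test through the 0.5MAhR arrays. When the scanner software's processed signals were used the difference was 0.37 (unadjusted p = 0.0317, limma's adjusted p = 0.835). On none of the 8 arrays was a second Abcc4 probe well above background in Cy5.

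Abcc6 encodes a basolateral exporter whose loss causes pseudoxanthoma elasticum in humans. Its log2 ratios were 3.89, 4.18, 4.01 and 4.22 on 0.5MAhR arrays 1 to 4, against 4.17, 3.82, 4.32 and 4.17 on Control arrays 5 to 8. The groups overlapped, and the lowest value of each group was in column 2. The means were 4.08 ± 0.15 in 0.5MAhR and 4.12 ± 0.21 in Control, a difference of -0.04 (95% interval -0.35 to 0.26, or -0.24 to 0.15 with column fitted). The column difference, column 2 minus column 1, was -0.25 (limma's adjusted p = 0.0323).

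The uptake carriers did not pass the test either. Slco1a1 encodes Oatp1a1, a carrier of bile acids and steroid conjugates. It had log2 ratios of 3.93, 3.89, 4.16 and 4.36 on 0.5MAhR arrays 1 to 4, against 4.07, 3.77, 4.21 and 4.13 on Control arrays 5 to 8. The groups overlapped, with means of 4.08 ± 0.22 in 0.5MAhR and 4.05 ± 0.19 in Control. The difference was 0.04, with a 95% interval of -0.29 to 0.36, or -0.24 to 0.31 with column fitted. The Cy3 reference at this probe was well above background on 0 of 8 arrays, so its log2 ratios rest on a denominator near background, and the sample channel alone differed by 0.01.

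Slco1a4 encodes Oatp1a4, a carrier with a wide range of substrates and a known PXR target in rat liver. It had log2 ratios of 4.47, 3.70, 4.31 and 3.71 on 0.5MAhR arrays 1 to 4, against 3.53, 4.62, 3.68 and 4.33 on Control arrays 5 to 8. In both groups the column 2 arrays were the high ones and the column 1 arrays the low ones, and the groups overlapped. The difference between groups was 0.01 (95% interval -0.63 to 0.65), and with column fitted its interval was -0.19 to 0.21. The column difference itself was 0.78 (limma's adjusted p = 8.34e-05).

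Slco1b2 encodes Oatp1b2, the liver-specific carrier of the family. It had log2 ratios of 5.24, 6.04, 5.35 and 6.59 on 0.5MAhR arrays 1 to 4, against 6.19, 5.04, 6.04 and 5.17 on Control arrays 5 to 8. Here the column 1 arrays were the high ones in both groups, and the groups overlapped. The means were 5.80 ± 0.63 in 0.5MAhR and 5.61 ± 0.59 in Control, a difference of 0.19 (95% interval -0.63 to 1.02). With column fitted the interval was -0.06 to 0.45 and limma's adjusted p = 0.868. The Cy3 reference was well above background on 1 of 8 arrays, and the sample channel alone differed by 0.22 (limma's adjusted p = 0.492 with column fitted). The column difference was -1.02 (limma's adjusted p = 7.62e-05), and the group difference was -0.30 when processed signals from the scanner software were used. In RefSeq's order on chromosome 4, Slco1b2, Slco1a4 and Slco1a1 are consecutive protein-coding genes.

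**Figure D3:**
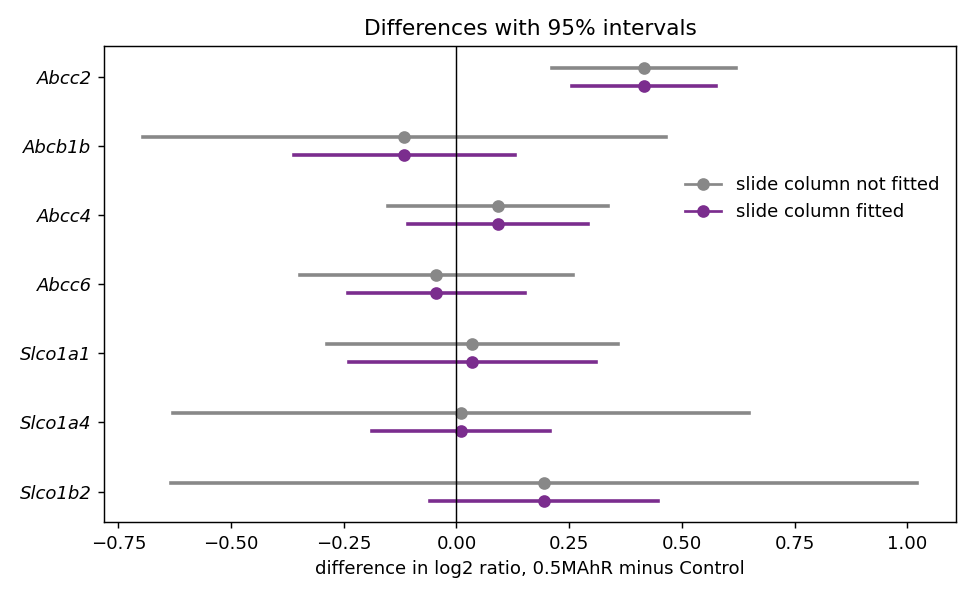
Difference in log2 ratio, 0.5MAhR minus Control (horizontal axis), for each measured transporter, with 95% intervals from limma's fit without (grey) and with (purple) slide column. The Abcc2 intervals, 0.21 to 0.62 and 0.26 to 0.58, lie above 0, and those of the other 6 genes include 0.

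**Figure D4:**
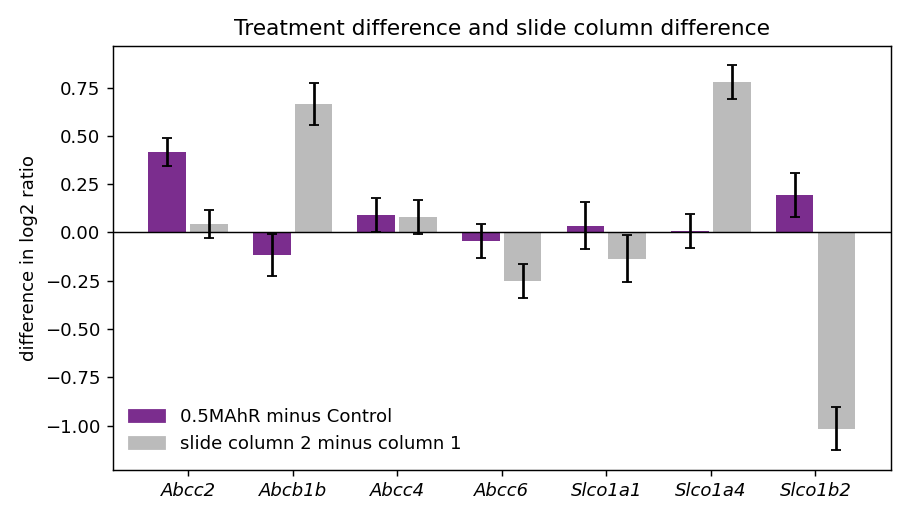
Difference in log2 ratio (vertical axis) between the groups (purple) and between slide columns (grey) for each measured transporter; error bars are SEs of the fit with column. The column difference of Slco1b2, -1.02, and of Slco1a4, 0.78, are larger than their group differences of 0.19 and 0.01, while for Abcc2 the group difference of 0.42 is larger than the column difference of 0.04. These genes differ in spots per array: 10 for Abcc2, 2 for Slco1a4 and 1 for Slco1b2.

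Exporters were set against carriers by direction and size. Of the 4 measured exporters, Abcc2 and Abcc4 had positive differences and Abcb1b and Abcc6 negative ones, with a median of 0.02. Abcc4 is among them only through the 0.5MAhR arrays, and with only probes well above background on all 8 arrays, which leaves it out, the median was -0.04. All 3 carriers had positive differences, with a median of 0.04, and all 3 turned negative with the processed signals. Over all genes tested, 4946 differences were positive and 5620 negative, with a median of -0.01. Groups that did not overlap, with 0.5MAhR higher, were found for 1 of the 7 members, Abcc2, against 0.786% of all genes. Each array's mean over the measured exporters, taken from its Control mean, was 0.20, 0.00, 0.20 and -0.05 on 0.5MAhR arrays 1 to 4, against -0.02, 0.00, -0.04 and 0.05 on Control arrays 5 to 8. The same value for the carriers was -0.02, -0.02, 0.04 and 0.32 on 0.5MAhR arrays, against 0.03, -0.09, 0.08 and -0.02 on Control arrays. Both overlapped between the groups, and the exporter mean was high on the 0.5MAhR arrays of column 2. The exporter mean minus the carrier mean differed between the groups by 0.01, which was -0.09 within column 1 and 0.11 within column 2. This value was 0.27 when the processed signals were used.

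**Figure D5:**
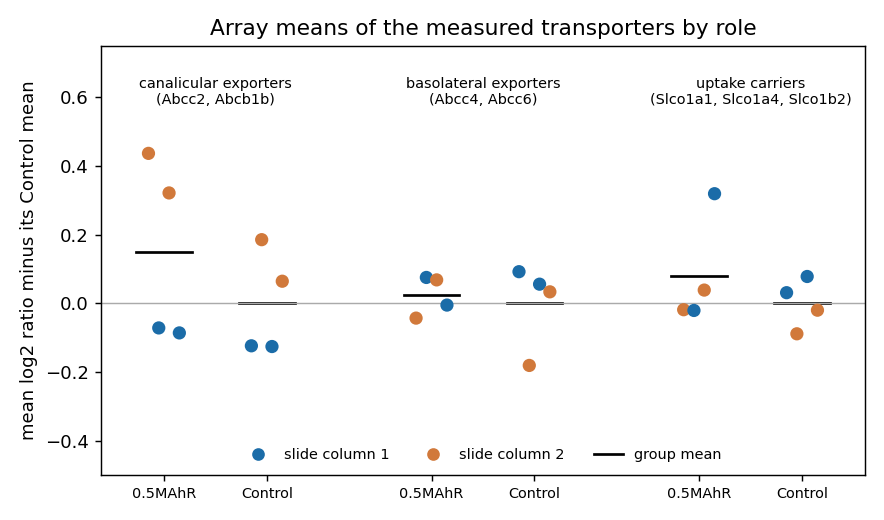
Mean log2 ratio over the measured genes of each role on each array, relative to that role's Control mean (vertical axis), 0.5MAhR left of Control, coloured by slide column; lines are group means. Abcc2 is averaged with Abcb1b among the canalicular exporters, whose column 2 arrays are the high ones in both groups.

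Further transport genes were described from lists of related genes. Of 10 other ABC transporters 8 were measured, of which 2 had positive and 6 negative differences (median -0.09), and 0 passed the threshold with or without column. At an unadjusted p under 0.05 in limma's fit were 0 of the 8, against 1.53% of all genes. With column fitted it was 1 of the 8, against 6.34% of all genes. Abcg5, a canalicular sterol exporter, averaged 4.20 in 0.5MAhR and 4.58 in Control, a difference of -0.38. Abcb11, the bile salt export pump, differed by -0.56, a value set by Control array 7 at 5.66, since the difference was -0.05 without it. Abcc5, an exporter of cyclic nucleotides, differed by -0.15.

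Of 18 other uptake and exchange carriers 9 were measured, 5 with positive and 4 with negative differences, and 0 passed. At an unadjusted p under 0.05 in limma's fit were 2 of the 9, against 1.53% of all genes. With column fitted it was again 2 of the 9, against 6.34% of all genes. Slc16a1, the monocarboxylate carrier Mct1, had log2 ratios of 0.72, 0.88, 0.94 and 0.76 on 0.5MAhR arrays 1 to 4, against 1.00, 1.31, 0.98 and 1.33 on Control arrays 5 to 8. These groups did not overlap, as for 1.32% of all genes in either direction, and limma's adjusted p with column was 0.415. Slc22a8, an organic anion carrier, differed by -0.22.

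Factors that control these transporters were described in the same way. Of 13 regulators 11 were measured, 8 with positive and 3 with negative differences (median 0.04), and 0 passed. At an unadjusted p under 0.05 in limma's fit were 0 of the 11, against 1.53% of all genes. With column fitted it was 1 of the 11, against 6.34% of all genes. Nfe2l2, which encodes NRF2, differed by 0.30, Ppara, a sensor of fatty acids, by 0.29, and Nr1i2, which encodes PXR, by -0.11. Of 5 scaffold genes with a probe, whose products hold transporters at the membrane, 4 were measured and 0 passed. Ezr differed by 0.07, Nherf1 by 0.03 and Pdzk1 by -0.03.

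Arrays were alike in brightness, with median Cy5 intensity of 81 to 94 over a background of 68 to 73, and 42.9% to 49.2% of spots well above background in Cy5. All 5 hepatocyte markers (such as Alb and Ttr) were measured, and each had a negative difference (median -0.11) with 0 past the threshold. Their summed Cy5 signal was 772000 to 830000 in 0.5MAhR and 783000 to 810000 in Control. All 5 Kupffer cell markers had positive differences (median 0.14) and 0 passed, with summed signals of 4440 to 5960 in 0.5MAhR and 4370 to 5350 in Control. Of 5 cholangiocyte markers 3 were measured, with sums of 286 to 363 in 0.5MAhR and 292 to 322 in Control. Cftr was too dim and Sox9 had no named probe. The 3 erythroid markers summed to 60600 to 71800 in 0.5MAhR and 40800 to 66300 in Control. Hbb differed by 0.15, Slc4a1 by 0.23 and Alas2 by -0.005, and 0 passed. Within column 1 these differences were 0.42, 0.66 and 0.22, and within column 2 they were -0.12, -0.20 and -0.23. The part of these cell types in the transporter values was not tested, and in whole liver fewer cells of a type and less RNA per cell cannot be told apart.

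Genes whose pattern was most like a member's over the 8 arrays, after the mean of each slide column was subtracted, were sought for the brightest measured gene of each role among 6937 named genes. For Abcc2 they were Arpc1b (r = 0.959), Cyb5a (0.949) and Med28 (0.939), and 18 genes had r over 0.9. For Abcc6 they were Hagh (0.969), Dennd6b (0.964) and Tmem38b (0.961), with 52 genes over 0.9. For Slco1a4 they were Diablo (0.98), Polr1h (0.98) and Tmem59 (0.964), with 34 genes over 0.9. Only column means were subtracted, so a shared group difference raises r. Of the genes most like Abcc2, Arpc1b differed between the groups by 0.24, Cyb5a by 0.54 and Med28 by 0.10. With column fitted, limma's adjusted p was 0.395 for Arpc1b, 0.0224 for Cyb5a and 0.87 for Med28. Without column in the fit, Cyb5a did not pass the threshold, and neither did Arpc1b or Med28. The points share their arrays and common reference, and these correlations are descriptions. Between members, Slco1a4 and Slco1b2 had r of -0.932 over the arrays as measured and -0.226 after column means were subtracted, and the highest value after subtraction was 0.706, for Slco1a1 with Slco1b2.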

How the data were processed

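Per the file headers, Agilent Feature Extraction 11.0.1.1 produced the intensity of each spot. The deposited median foreground and background intensity of both channels and the deposited marks for outlying, saturated or well-above-background spots were used. The deposited value table holds log2 ratios of Cy5 over Cy3. It correlated with the scanner values at r of 0.997 to 0.998 on each array, which settles direction, with column medians of -0.0389 to -0.0326. A correlation does not settle scale. No source used here tells how the authors centred it.

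Background correction by normexp (offset 50) was done in limma 3.58.1 under R 4.3.3, arrays were normalised with loess with control spots at no weight, outlier spots were left out and spots averaged per probe. A probe entered the test when its Cy5 signal was marked well above background on 3 or more of 4 arrays of a group: 11406 of 30367 probes, giving 10566 genes or unnamed probes with the brightest probe for each gene. Symbols came from accessions matched to a RefSeq table of GRCr8, for 18005 probes. Groups were compared with lmFit and eBayes and Benjamini-Hochberg adjustment over all genes, two-sided, and the number of arrays limits the precision. Slide position came from the scan's position suffix. The fit was tested on simulated data.

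The members, lists, markers and motifs were chosen with earlier results of these data known. All members were named. Of each further list, genes past the threshold were named, otherwise up to 3 with the smallest unadjusted p. A further gene that this rule took is not reported here. Marker lists also covered stellate, endothelial and lymphocyte markers, with medians of 0.11, -0.01 and -0.09 and 0 members past the threshold. Alternatives changed the background correction, signals, normalisation, channel, slide terms, filter, variance model, probe summary and replicates. The other arrays of the study were not analysed here.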

Additional observations from a re-analysis of the deposited data

Results flagged for a closer look

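Of 90 combinations of a gene and a group, 1 held an array far from its group. Slc10a1, which encodes the bile acid uptake carrier Ntcp, had a log2 ratio of 8.07 on 0.5MAhR array 4, against 7.71 to 7.76 on the other 0.5MAhR arrays. Chance alone gives about 1 such array in 20 groups. The group difference of Slc10a1 was 0.0009 on the log2 scale.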

How the results depend on the processing

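Abcc2 stayed higher in 0.5MAhR under all 22 alternatives, with differences of 0.37 to 0.44 and adjusted p of 0.102 to 1, and with any 1 array left out (0.37 to 0.46, adjusted p 0.218 to 1). No member passed the threshold in any alternative. The count of genes past it, 1, became 5 with slide column as a term, 2 within column 1, and 0 within column 2, with slide row as a term, with processed signals, or with only probes above background on all 8 arrays (591, 76, 600 and 128 genes at an unadjusted p under 0.05 in limma's fit). Combined with the column term, chosen after seeing the data, it was 6 with no filter on dim probes, 4 without background correction, 4 for a normexp offset of 16, 4 for the deposited table, 3 with median centring, 14 with Cy5 alone and 0 with processed signals (860 at an unadjusted p under 0.05). Leaving out 1 array gave 0 to 2 genes without the column term and 1 to 11 with it. The 0 came without 0.5MAhR replicate 2 or 3, or Control replicate 5 or 7, and the 11 without 0.5MAhR replicate 2. Processed signals, with or without column, gave an exporter median of 0.14, an exporter minus carrier value of 0.27, and differences of -0.029 for Slco1a1, -0.075 for Slco1a4, -0.30 for Slco1b2 and 0.37 for Abcc4 (unadjusted p 0.0317, or 0.0373 with column). The deposited table gave -3e-04 for Slco1a4. Within column 1 Abcc4 was at -0.0315, Slco1a1 at -0.018, Abcb1b at -0.34 and the exporter median at -0.039. That median was -0.0445 with only probes above background on all 8 arrays and -0.0027 with Cy5 alone. Within column 2 Abcb1b was at 0.10, Slco1a4 at -0.081 and the exporter median at 0.16. With 1 array left out, with or without the column term, differences spanned 0.041 to 0.16 for Abcc4, -0.26 to 0.0496 for Abcb1b, -0.145 to 0.0249 for Abcc6, -0.056 to 0.14 for Slco1a1, -0.16 to 0.20 for Slco1a4 and -0.068 to 0.39 for Slco1b2. Cyp1a1, the 1 gene past the threshold in the fit without column, was well above background on 3 of 4 Control arrays. The filter on all 8 arrays therefore left it out. Apart from genes left out by a filter, the cause of these changes was not tested. No paired analysis by replicate was possible because the groups share no replicate number. Each slide row held 1 array of each group, and with row as a term Abcc2 differed by 0.42 (unadjusted p 0.0158, adjusted p 1). Signal over background limits Abcc3, Abcb1a and Abcc4 in Cy5, and Slco1a1 and Slco1b2 in the Cy3 reference.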
